A study of Mus musculus and Ictidomys tridecemlineatus with 36 samples.

Results

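The primary cilium of the photoreceptor is examined here through 41 genes that encode its transport machinery and its connecting cilium, out of 21938 protein-coding genes annotated on the mouse genome. The members were chosen by name and role, though with earlier results of these data known, and all 41 were found in the annotation. They comprise 12 genes of intraflagellar transport complex B (IFT-B), 6 of complex A (IFT-A), 8 of the BBSome and its GTPase, 2 chaperonin-like BBS genes, 6 transition zone genes, 2 of the tubby family, 4 motor subunits and 1 axonemal gene. Expression of Rp1, Rpgrip1 and Tulp1 is known to be concentrated in photoreceptors, and these 3 are called photoreceptor-enriched, whereas the other 38, which serve cilia in most tissues, are called general.

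The data are CUT&RUN peaks from whole retina of the mouse at P2, a stage rich in late progenitors and photoreceptor precursors. CUT&RUN cuts and releases the DNA around an antibody-bound protein, so that a peak marks where that protein or histone mark sits. There were 2 biological replicates, each a pool of retinas from 3 individuals, with 2 libraries for each of H3K4me3, H3K27ac, H3K4me1 and the IgG control, 4 for Neurod1 and 8 for Otx2, the last made with 2 antibodies. The labels name no genetic change or treatment. For each target the values are those of 1 list called on the pooled libraries, in which a peak has 1 fold enrichment over IgG and 1 q-value, with −log10 q from about 1.30 upward. No value below therefore has a spread between replicates, the read depth is unknown, and no difference was tested.

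Photoreceptors build their light-sensing outer segment as a greatly enlarged cilium. Everything in it passes through the connecting cilium, the equivalent of the transition zone, carried outward by kinesin with IFT-B and returned by dynein-2 with IFT-A, while the BBSome removes membrane proteins that do not belong there. Defects in these genes cause retinal degeneration, alone or with disease of kidney, brain and skeleton. H3K4me3 marks active promoters, H3K27ac active promoters and enhancers, and H3K4me1 enhancers and promoter flanks. Otx2 and Neurod1 are transcription factors of photoreceptor precursors, Otx2 being a homeodomain protein of the kind that binds TAATCC and Neurod1 a basic helix-loop-helix protein of the kind that binds CAGATG.

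Sequences under Neurod1 peaks that an Otx2 peak overlapped are shown first, for Rpgrip1 and Tulp1 as photoreceptor-enriched members and for Ttc8 and Arl6 as the general members with the highest Neurod1 values. Each is 300 bases of GRCm38 centred on a Neurod1 summit, printed 5′ to 3′ on the plus strand, and capitals mark TAATCC and CAGATG on either strand. The stretch upstream of Rpgrip1 lies at chr14:52107958-52108257, that upstream of Tulp1 at chr17:28371929-28372228, that in an intron of Ttc8 at chr12:98932667-98932966, and that downstream of Arl6 at chr16:59604531-59604830.
Rpgrip1: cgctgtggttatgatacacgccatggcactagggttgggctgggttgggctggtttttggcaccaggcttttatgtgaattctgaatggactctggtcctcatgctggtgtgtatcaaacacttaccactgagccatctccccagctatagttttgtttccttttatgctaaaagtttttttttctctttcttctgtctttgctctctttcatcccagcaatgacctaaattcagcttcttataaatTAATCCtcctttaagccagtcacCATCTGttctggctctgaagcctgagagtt
Tulp1: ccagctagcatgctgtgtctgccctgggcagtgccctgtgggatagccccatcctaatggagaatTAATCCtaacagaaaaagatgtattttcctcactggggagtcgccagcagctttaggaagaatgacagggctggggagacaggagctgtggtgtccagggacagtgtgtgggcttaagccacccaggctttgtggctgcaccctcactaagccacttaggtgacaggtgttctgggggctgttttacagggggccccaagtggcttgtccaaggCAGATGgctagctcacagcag
Ttc8: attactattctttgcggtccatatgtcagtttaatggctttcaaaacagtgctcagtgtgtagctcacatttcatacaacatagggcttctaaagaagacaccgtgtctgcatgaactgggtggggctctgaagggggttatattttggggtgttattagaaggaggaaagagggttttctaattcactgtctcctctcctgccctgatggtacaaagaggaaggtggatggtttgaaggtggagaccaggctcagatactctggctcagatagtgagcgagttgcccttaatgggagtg
Arl6: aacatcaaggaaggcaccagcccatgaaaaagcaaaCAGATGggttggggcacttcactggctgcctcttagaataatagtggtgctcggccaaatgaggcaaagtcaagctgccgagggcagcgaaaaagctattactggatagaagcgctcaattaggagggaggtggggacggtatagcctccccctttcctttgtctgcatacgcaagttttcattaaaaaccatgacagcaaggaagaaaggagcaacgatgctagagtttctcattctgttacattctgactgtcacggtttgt
The Rpgrip1 and Tulp1 stretches each held 1 TAATCC and 1 CAGATG, the Arl6 stretch held 1 CAGATG, and the Ttc8 stretch held neither. With the Neurod1 summit at base 151, TAATCC began at base 248 in Rpgrip1 and 66 in Tulp1. CAGATG began at base 271 in Rpgrip1, 280 in Tulp1 and 37 in Arl6. The Otx2 summit near Arl6 lay outside the stretch printed for it. Over all 4744 Neurod1 summits, 52.1% of windows of this length held CAGATG and 14.2% held TAATCC.

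All 41 members carried an H3K4me3 peak within 1 kb of an annotated transcription start site (TSS). Among all protein-coding genes the share was 56.0%. Strength was moderate: the members' strongest H3K4me3 peaks had a median fold enrichment of 14.6 over IgG, against 17.5 for all 12289 genes with such a peak, and 4 of 41 were above the 75th percentile while 8 were below the 25th. The range ran from 5.43 at Ift172 to 58.8 at Ift80. H3K4me3 thus did not separate photoreceptor-enriched from general members by presence. In whole retina, fewer cells with a mark and less signal per cell cannot be told apart, here or for any target.

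Otx2 peaks lay within 1 kb of a TSS of 40 of 41 members, 97.6%, compared with 51.0% of all protein-coding genes and 86.4% of the genes with H3K4me3 at a TSS. All 3 photoreceptor-enriched members and 37 of 38 general members had one. The exception was Kif17, a kinesin-2 motor, whose only Otx2 peak in the gene body plus 10 kb had a fold enrichment of 2.28. The members' median Otx2 fold enrichment was 4.80, against 3.99 for the 11192 genes with a peak. By group, the general members had a median of 4.22 and a median percentile of 55.6, near the middle of all genes with a peak, and the photoreceptor-enriched members had 6.74 and 87.5, from 3 genes. Of the 40 members, 17 were above the 75th percentile, 8 were at or above the 90th, and 4 were below the 25th. The lowest value was 2.36 at Ift81. Since the lists differ in length, each was also shortened to its 4744 peaks of lowest q, the length of the Neurod1 list: Otx2 then remained at a TSS of 16 of 41 members, 39.0% against 14.1% of all genes, while H3K4me3 remained at 9, 22.0% against 24.9%. All genes are an unlike background here, since 56.0% of them have H3K4me3 at a TSS in the full list and all members do. Shares among genes with H3K4me3 were not computed for the shortened lists, and both would be higher than those of all genes.

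**Figure D1:**
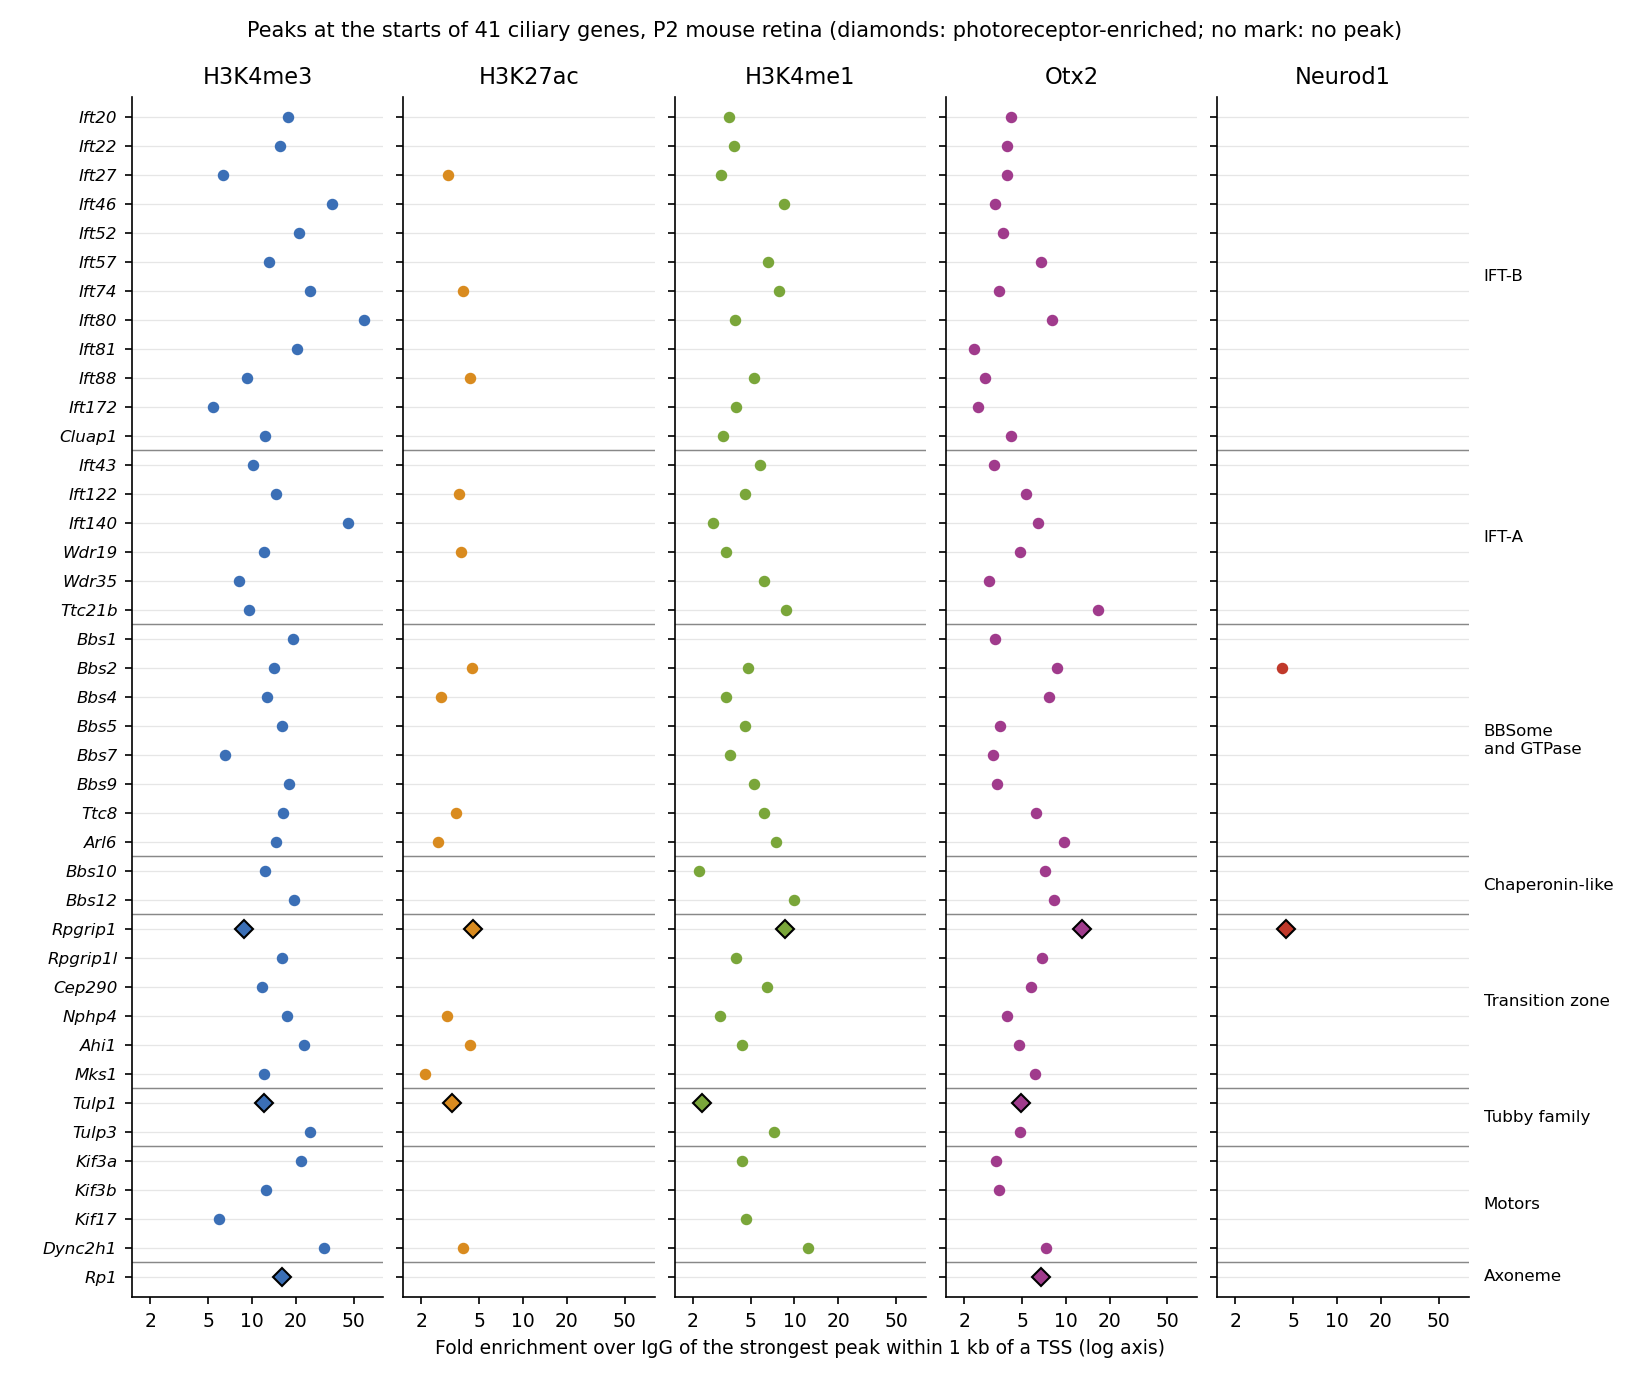
Fold enrichment over IgG (log axis) of the strongest peak within 1 kb of a TSS, for 41 members in rows grouped by role and 5 targets in columns; diamonds mark Rpgrip1, Tulp1 and Rp1, and an empty place means no peak. H3K4me3 points fill all 41 rows and Otx2 points 40, whereas Neurod1 has points at Bbs2 and Rpgrip1 alone.

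H3K27ac and H3K4me1 divided the members more. H3K27ac peaks lay within 1 kb of a TSS of 15 of 41 members, 36.6%, where the background was 22.6% of all genes and 37.1% of genes with H3K4me3, so the members' share was near that of other H3K4me3 genes. Their median fold enrichment was 3.64, against 3.58 for all genes with a peak. The highest values were 4.55 at Rpgrip1, 4.43 at Bbs2, 4.30 at Ift88, there at an internal start, 4.30 at Ahi1 and 3.87 at Ift74. Of these, Ift88 had H3K4me3 at 9.27 and Otx2 at 2.76 at the gene start. Its H3K4me1 value of 5.29 was at the internal start, and H3K4me1 near the gene start was 2.72. Ift74 had H3K4me3 at 24.9, H3K4me1 at 7.85 and Otx2 at 3.497. Ahi1, a scaffold of the transition zone, had H3K4me3 at 22.7, H3K4me1 at 4.39 and Otx2 at 4.77. Counting gene starts alone, without internal starts, H3K27ac was at 10 of 41, with no background share given for that setting. H3K4me1 was present at 35 of 41 members, 85.4%, against 63.6% of all genes and 91.9% of H3K4me3 genes. The 6 without it were Ift52, Ift81, Bbs1, Mks1, Kif3b and Rp1. Peaks were next combined over all TSSs of a gene, so the targets need not lie at the same TSS. For Ift88, Ift122, Wdr19 and Arl6, the H3K27ac peaks counted lay at internal starts and overlapped no Otx2 peak. With all targets combined in this way, 20 members had H3K4me3, H3K4me1 and Otx2 at a TSS, and 12 had these and H3K27ac. A further 5 had only H3K4me3 and Otx2, and 2, Bbs2 and Rpgrip1, had all 5. In that order, these were 48.8%, 29.3%, 12.2% and 4.88% of members. Among genes with H3K4me3 at a TSS the shares were 43.0%, 28.0%, 4.62% and 5.68%, so only the third was not near the members' share. The remaining 2 members were Mks1, with H3K4me3, H3K27ac and Otx2, and Kif17, with H3K4me3 and H3K4me1. Those combinations had shares of 1.42% and 10.1% among genes with H3K4me3.

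Neurod1 peaks, of which the list holds 4744 against 29115 for Otx2, were at few member promoters, a share near that of all genes. A Neurod1 peak within 1 kb of a TSS was listed for 2 of 41 members, 4.88%, where the background was 5.76% of all genes and 9.46% of genes with H3K4me3. At Rpgrip1 its fold enrichment was 4.44 and at Bbs2 4.15. In the wider window of the gene body plus 10 kb on each side, 13 of 41 members, 31.7%, had a Neurod1 peak, against 15.3% of all genes and 22.1% of H3K4me3 genes. All 3 photoreceptor-enriched members and 10 of 38 general members, 26.3%, were among them. With the gene body alone, without the flanks, the count was 7 of 41, and no background share is given for that setting. This window grows with the gene, and the members are long, with a median length of 51.5 kb against 17.4 kb for all genes. Per 100 kb of window, the general members had 0.402 Neurod1 peaks, the H3K4me3 genes 0.399 and all genes 0.329, while the 3 photoreceptor-enriched members had 0.746.

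The other targets in the same wider window were H3K4me3 and Otx2 at 41 of 41 members, against 62.7% and 64.7% of all genes, H3K27ac at 33 of 41, against 46.4%, and H3K4me1 at 40 of 41, against 77.6%. Mks1 was the member with no H3K4me1 peak. Among genes with H3K4me3 at a TSS, which all members have, the shares were 93.6% for Otx2, 66.1% for H3K27ac and 98.2% for H3K4me1, so that the members' 97.6% for H3K4me1 was near theirs. These shares are also affected by gene length.

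**Figure D2:**
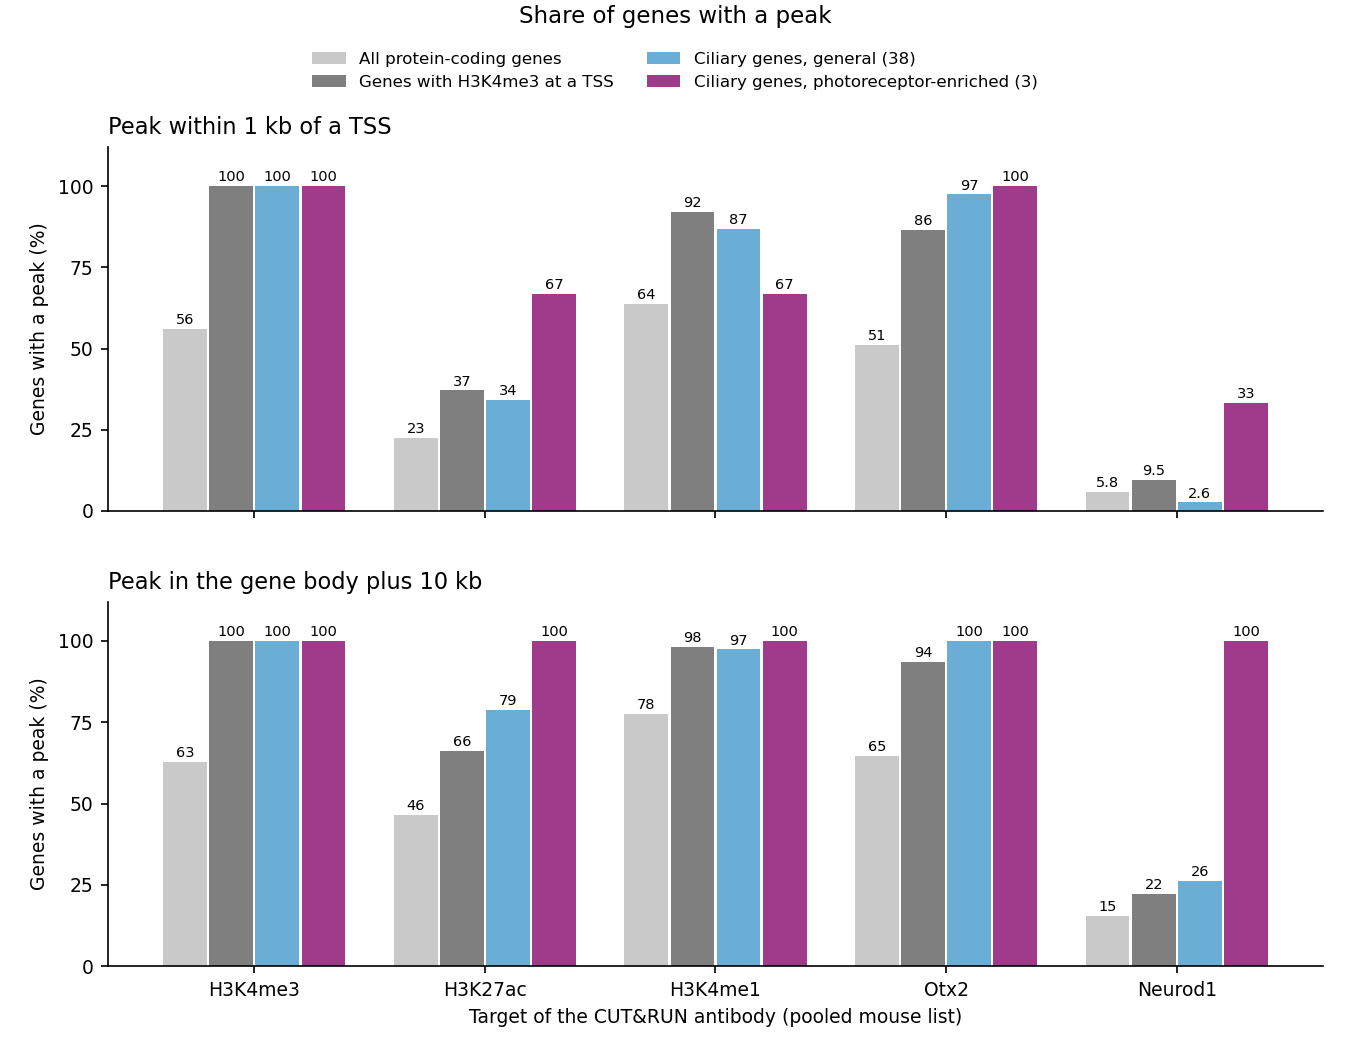
Share of genes (%) with a peak of each target within 1 kb of a TSS (top) and in the gene body plus 10 kb (bottom), for all protein-coding genes, genes with H3K4me3 at a TSS, the 38 general members and the 3 photoreceptor-enriched members. Otx2 at a TSS reaches 97.4% of general members, and Neurod1 in the wider window reaches 3 of 3 photoreceptor-enriched members, a set so small that each gene counts for 33.3%.

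Rpgrip1 encodes a scaffold that holds RPGR in the connecting cilium and lies on the plus strand at chr14:52110704-52163546. Its promoter had an Otx2 fold enrichment of 12.9, higher than at 99.1% of genes with an Otx2 peak, whereas its H3K4me3, at 8.79, was higher than at only 20.8%. H3K27ac had a fold enrichment of 4.55 there and Neurod1 4.44, with summits 288 and 29 bp downstream of the gene start. H3K4me1 at the start was 3.06, and the member's strongest TSS value for this mark, 8.67, belonged to an internal start. A TAATCC was found 25 bp before the RefSeq start, which lies downstream of the gene start used for the distances above. The site, too, is downstream of that gene start. It is shown here with its flanks on the minus strand of chr14:52110863-52110892.
Rpgrip1 promoter site: tagaggagacacTAATCCaggccttttagc

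The strongest element of the gene was upstream of it. The stretch printed above had a Neurod1 fold enrichment of 12.3 with its summit 2596 bp upstream of the start, the highest Neurod1 value of any member. An Otx2 peak with a fold enrichment of 17.6 overlapped it, the highest Otx2 value in any member's window. H3K27ac at 4.14 and H3K4me1 at 3.09 also overlapped it, while H3K4me3 did not. The H3K4me3 peak of 39.0 further upstream had its summit 113 bp from a TSS of the neighbour Hnrnpc.

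Tulp1 encodes a tubby-like protein needed for transport of rhodopsin to the outer segment, and is transcribed from the minus strand of chromosome 17. Peaks within 1 kb of its start had a fold enrichment of 12.2 for H3K4me3, 3.26 for H3K27ac and 4.95 for Otx2. The Otx2 value was higher than at 69.7% of genes with a peak. The H3K4me3 peak was 2604 bp wide, with its summit 1473 bp downstream of the gene start. No H3K27ac peak lay within 500 bp of a TSS. H3K4me1 was low, at 2.32 for the strongest TSS peak, a value higher than at 1.58% of genes. No Neurod1 peak lay there. An element with a Neurod1 summit 6857 bp upstream combined Neurod1 at 6.06, Otx2 at 4.71, H3K27ac at 6.88 and H3K4me1 at 2.72. H3K27ac was thus higher in this element than in the peak within 1 kb of the start.

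Rp1 encodes a microtubule-associated protein of the photoreceptor axoneme. Its gene model on chromosome 1 has several starts, and the H3K4me3 peak of 16.2, 4192 bp wide at chr1:4356599-4360790, lay at an internal one rather than at the outermost start. At the outermost start Rp1 had neither H3K4me3 nor Otx2. An Otx2 peak of 6.74 had its summit 141 bp upstream of that internal start and was higher than at 87.5% of genes with a peak. Neither H3K27ac nor H3K4me1 had a peak within 1 kb of a TSS, and the nearest H3K4me1 peak, at 5.51, had its summit 1208 bp upstream. In an intron of the longer model, 23417 bp upstream of the internal start, Neurod1 at 3.71 coincided with Otx2 at 3.72, H3K27ac at 3.59 and H3K4me1 at 6.47. Rpgrip1, Tulp1 and Rp1 thus each had an element away from the promoter at which Otx2, H3K27ac and H3K4me1, but not H3K4me3, overlapped Neurod1. The combination was not particular to them, since distal Neurod1 peaks of the general members Ift122, Bbs2, Bbs4, Ttc8 and Dync2h1 had it too.

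**Figure D3:**
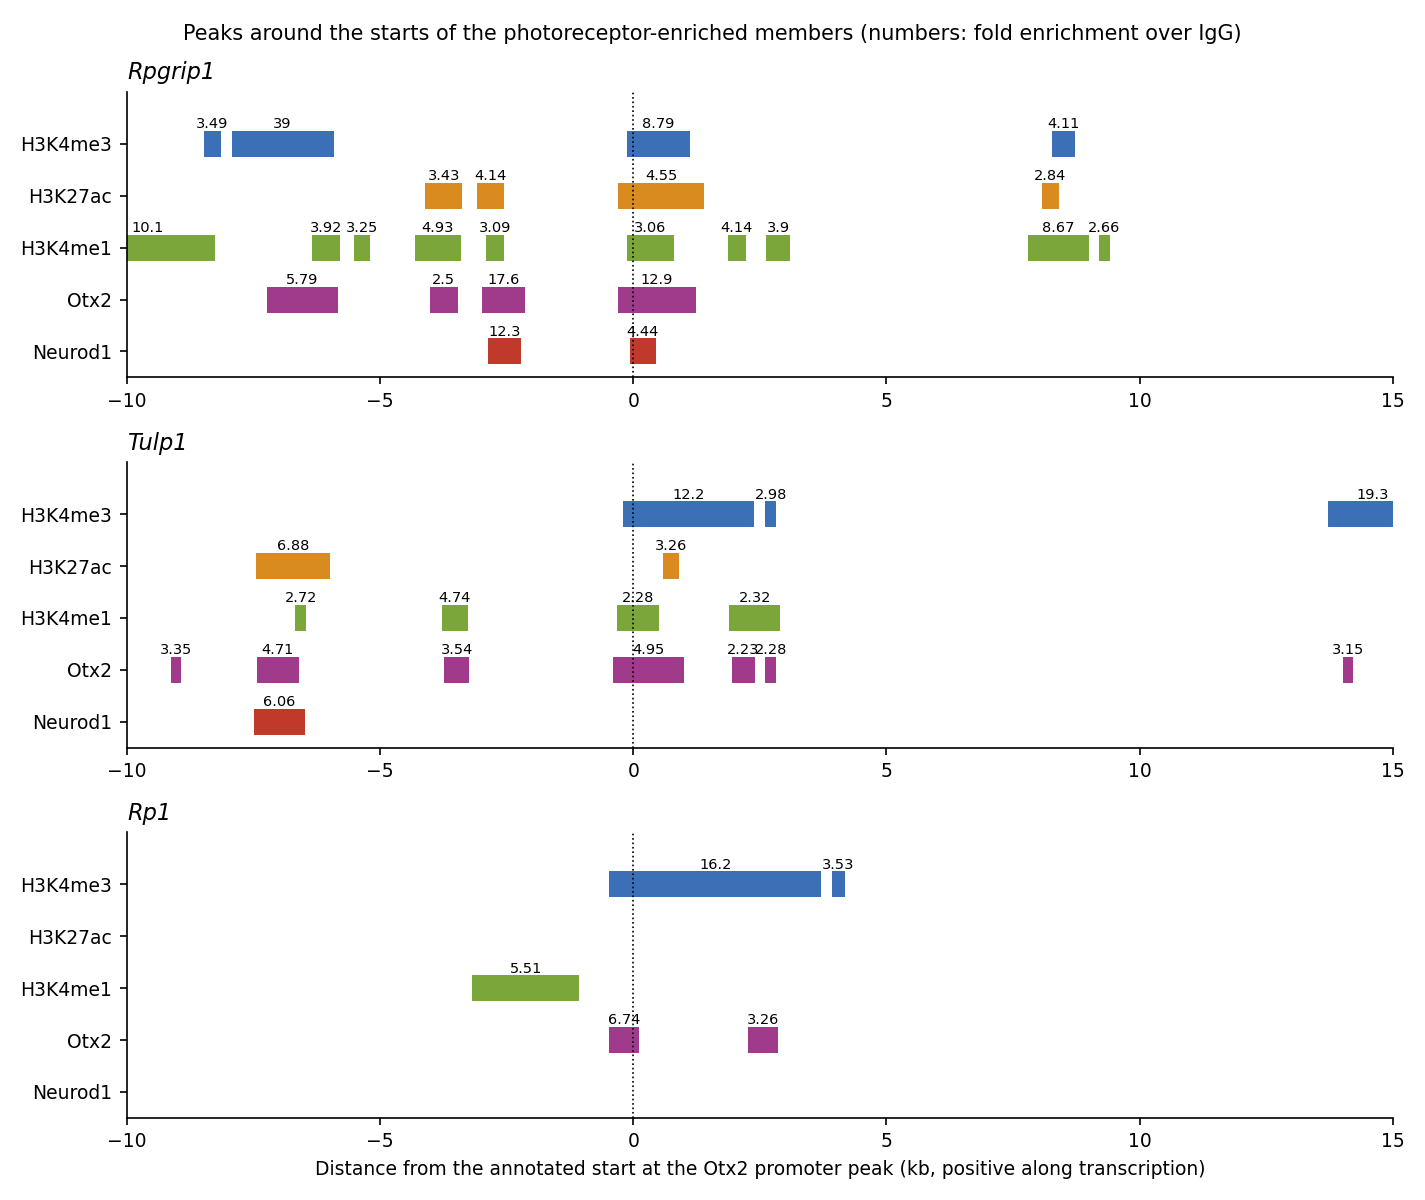
Peaks of 5 targets around Rpgrip1, Tulp1 and Rp1 as bars drawn to scale, with the fold enrichment over IgG above each bar; the x axis is the distance in kb from the annotated start nearest the Otx2 promoter peak, positive along transcription, and shows 10 kb before to 15 kb after it. Neurod1 bars lie at the start and 2596 bp upstream of it in Rpgrip1 and 6857 bp upstream in Tulp1, and the Rp1 element, 23417 bp upstream, is outside the plotted span.

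IFT-B carries cargo from the cell body to the ciliary tip. Its 12 genes had H3K4me3 and Otx2 at 12 of 12 starts, H3K27ac at 3 and H3K4me1 at 10. The Otx2 values were the lowest among the role groups of 6 or more genes, with a median fold enrichment of 3.83 and a range from 2.36 at Ift81 to 8.07 at Ift80, and only Ift80 and Ift57, at 6.70, exceeded 5. Ift80 and Ift46 had H3K4me3 values of 58.8 and 35.8, the first higher than at 97.9% of genes. Both share their window with another promoter. The Ift80 H3K4me3 peak, 4493 bp wide, had its summit nearest a TSS of Smc4. A TSS of Arcn1 lay 63 bp from one of Ift46. Another H3K4me3 peak of Ift46, at 22.5, had its summit 60 bp from an internal start, with Otx2 at 3.18 over it. No IFT-B gene had a Neurod1 peak in the gene body plus 10 kb, 0 of 12. The background was 15.3% of all genes and 22.1% of H3K4me3 genes, shares at which few of 12 genes would have one. This count also depends on gene length.

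IFT-A returns material to the cell body and admits membrane proteins to the cilium. Ttc21b, which encodes the IFT139 subunit, had the highest Otx2 value of all members at a TSS, 16.7, higher than at 99.7% of genes with a peak. The peak was 1427 bp wide with its summit 214 bp upstream of the start. H3K4me3 was 9.49 and H3K4me1 8.72 there, with no H3K27ac peak within 1 kb. The 250 bases before the RefSeq start, minus strand of chr2:66256618-66256867, are printed because this Otx2 value is the highest at a member TSS, and no motif searched here was found in them. The Otx2 summit lies at base 37 of this stretch, so the part of the peak further upstream is outside it.
Ttc21b promoter: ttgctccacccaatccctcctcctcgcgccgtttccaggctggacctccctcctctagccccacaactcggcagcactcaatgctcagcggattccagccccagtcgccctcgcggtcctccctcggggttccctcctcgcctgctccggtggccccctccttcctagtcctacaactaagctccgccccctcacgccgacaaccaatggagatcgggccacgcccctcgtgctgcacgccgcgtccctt

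Of the other IFT-A genes, Ift140 had an H3K4me3 value of 46.1 and an Otx2 value of 6.49, Ift122 had 14.6 and 5.32, Wdr19 12.2 and 4.86, Ift43 10.2 and 3.22, and Wdr35 8.16 and 2.98. Ift140 and Ift122 are each within 1 kb of another gene's start, Cramp1l and Mbd4. Ift122 had a Neurod1 peak of 7.80 in an intron, 2971 bp upstream of an internal start and 37535 bp into the gene, overlapped by Otx2 at 5.09, H3K27ac at 6.59 and H3K4me1. The H3K27ac peaks that counted as TSS peaks of Ift122 lay at internal starts, and none lay at the gene start. The pair of Neurod1 peaks at Ift43 were weaker, 3.90 downstream of the gene without Otx2, and 2.89 upstream, 461 bp from a TSS of Tgfb3.

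The BBSome is a coat complex recruited to membranes by the GTPase Arl6. Among the role groups of 6 or more genes this one had the largest share with Neurod1, 5 of 8 in the gene body plus 10 kb, where the background was 15.3% of all genes and 22.1% of H3K4me3 genes. H3K4me3 and Otx2 were at 8 of 8 starts, H3K27ac at 4 and H3K4me1 at 7. The highest Otx2 values at a TSS were 9.68 at Arl6, 8.73 at Bbs2, 7.62 at Bbs4 and 6.19 at Ttc8, and the other 4 genes lay between 3.14 at Bbs7 and 3.54 at Bbs5. The same 4 highest genes were those with H3K27ac within 1 kb of a TSS, at Arl6 only at an internal start, and each also had a Neurod1 peak in its window. This pattern was noticed after the values were seen. The fifth with Neurod1, Bbs1, had a peak of 2.89 downstream, 257 bp from a TSS of Zdhhc24.

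Ttc8, the BBS8 subunit, carried its Neurod1 peak of 9.80 in an intron, 12243 bp from the gene start, in the stretch printed above. Otx2 there was 12.6 and H3K27ac 6.92. At the Ttc8 gene start Otx2 was 6.19 and H3K27ac 2.57, both lower than in the intron, and an internal start further along had H3K27ac at 3.43. The Bbs2 promoter had all 5 targets, with Otx2 at 8.73 and Neurod1 at 4.15 in a coding exon, 604 and 613 bp downstream of a start. Bbs2 also had a downstream element with Neurod1 at 3.49, Otx2 at 4.66 and H3K27ac at 6.91. Bbs4 had one downstream with Neurod1 at 4.97, Otx2 at 4.90 and H3K27ac at 4.96, although its nearest TSS was that of Adpgk, 5886 bp away. The Neurod1 peak of 9.75 in the Arl6 window lay downstream of the gene, 3702 bp from a TSS of Crybg3, with Otx2 at 4.56 and no H3K27ac.

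The chaperonin-like genes Bbs10 and Bbs12, whose products assemble the BBSome, had Otx2 values of 7.18 and 8.36 at their starts and H3K4me3 values of 12.4 and 19.4. Neither had an H3K27ac or Neurod1 peak anywhere in its window.

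The transition zone gates entry to the cilium. Apart from Rpgrip1, its members had Otx2 values of 6.86 at Rpgrip1l, 6.13 at Mks1, 5.80 at Cep290, 4.77 at Ahi1 and 3.94 at Nphp4. Rpgrip1l, a general paralogue of Rpgrip1, had an H3K4me3 value of 16.1, higher than the 8.79 of Rpgrip1, and an Otx2 value lower than the 12.9 of Rpgrip1, with neither H3K27ac at a TSS nor Neurod1 in its window. Cep290, a long coiled-coil protein that links microtubules to the ciliary membrane, likewise lacked H3K27ac at the start. Nphp4 had a pair of Neurod1 peaks in introns, 3.83 and 2.26, neither with H3K27ac. Ahi1 had none, in a window with 28 H3K27ac peaks.

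Tulp3, the general paralogue of Tulp1, had an H3K4me3 value of 25.2 and an Otx2 value of 4.84 at its start, close to the 4.95 of Tulp1, with no H3K27ac. Its Neurod1 peak of 3.88 lay upstream, 516 bp from a TSS of Foxm1. Among the motors, Dync2h1, the heavy chain of dynein-2, had H3K4me3 at 31.5, Otx2 at 7.25, H3K27ac at 3.86 and H3K4me1 at 12.4, and 44 H3K27ac peaks in its window, the most of any member. The summits of these H3K4me3 and Otx2 peaks were nearest a TSS of Dcun1d5, 340 and 206 bp away. At an internal start of Dync2h1, 38 and 11 bp from the summits, H3K4me3 was 8.95 and Otx2 2.99. A Neurod1 peak of 3.72 lay in an intron of Dync2h1, with Otx2 at 5.98 and H3K27ac at 6.60 over it. The kinesin-2 subunit Kif3a had an Otx2 value of 3.30, and neither it nor its partner Kif3b had H3K27ac at a TSS. Kif17, the member without Otx2 at a TSS, had its H3K4me3 peak of 5.93 at an internal start and a weaker one of 3.58 at the gene start, where a TSS of Sh2d5 lay 12 bp away.

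**Figure D4:**
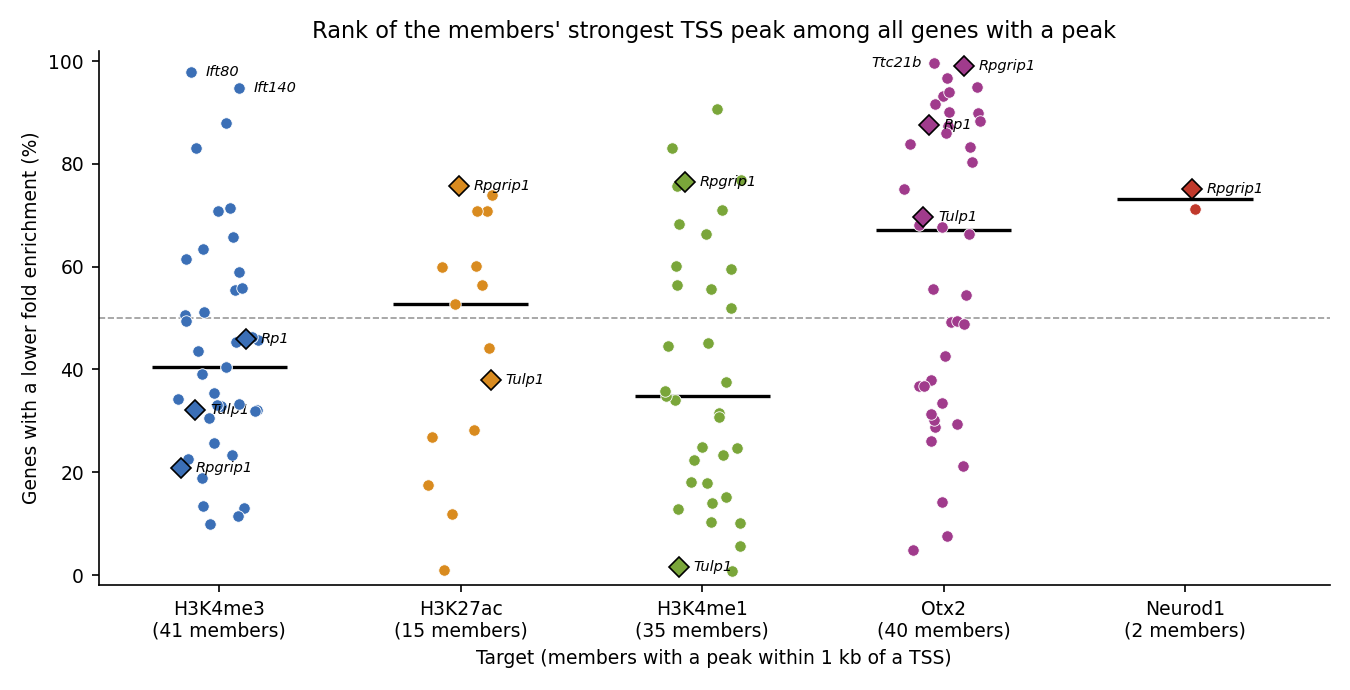
For each target, the share (%) of all genes with a peak whose strongest TSS peak had a lower fold enrichment than that of each member; points are members, diamonds the photoreceptor-enriched ones, bars the medians, and the dashed line is at 50%. The Otx2 median of 67.1% lies above the line with Ttc21b and Rpgrip1 at the top, while the H3K4me3 median of 40.5% and the H3K4me1 median of 34.9% lie below it.

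The 17 Neurod1 peaks in the members' windows shared the company of other marks: 16 overlapped H3K4me1, 15 overlapped Otx2, 10 overlapped H3K27ac and 5 overlapped H3K4me3. Among the 3650 Neurod1 peaks in the windows of all protein-coding genes, 83.2% overlapped H3K4me1, 82.5% Otx2, 53.3% H3K27ac and 31.5% H3K4me3, so these proportions were similar to those elsewhere. Of the 15 peaks away from the members' starts, 9 held CAGATG within the 300 bases around the summit and 5 held TAATCC. The shares over all Neurod1 summits, which include those at gene starts, were 52.1% and 14.2%.

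**Figure D5:**
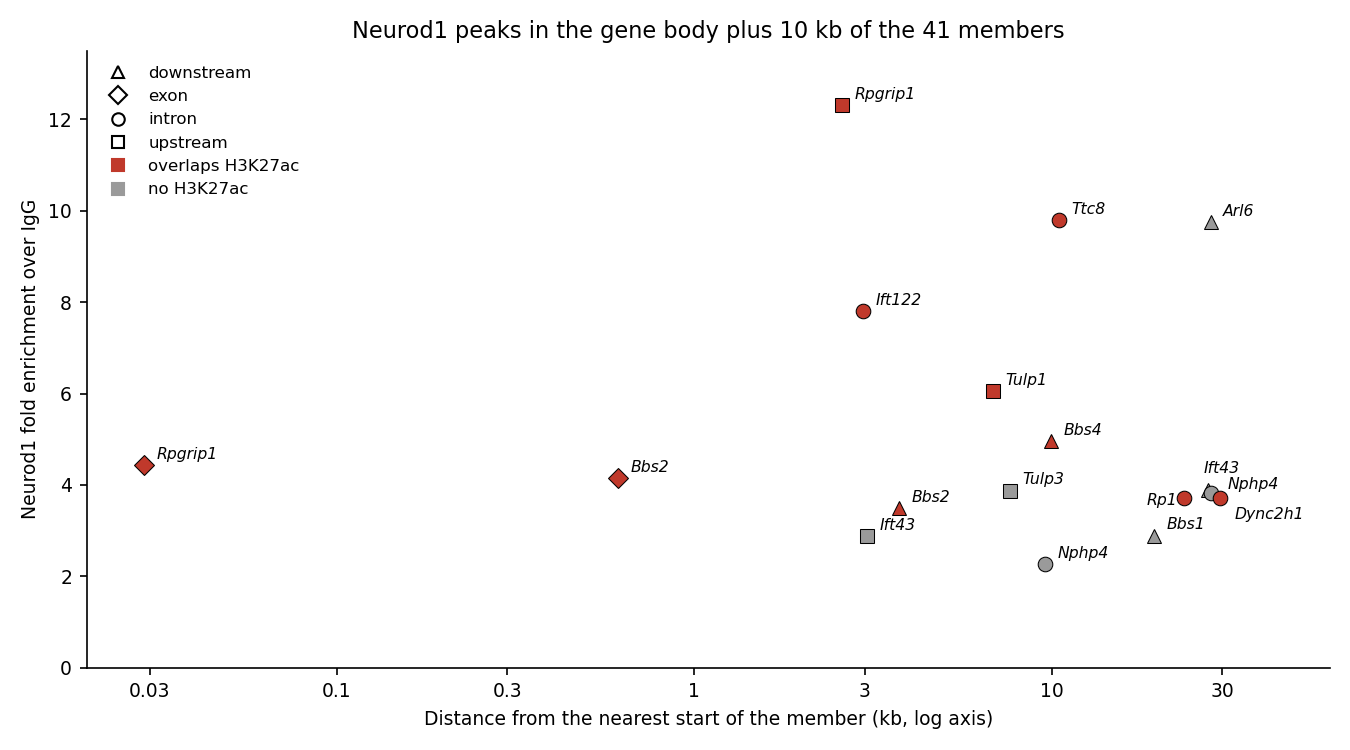
Neurod1 fold enrichment over IgG of the 17 peaks in the gene body plus 10 kb of the members against the distance (kb, log axis) from the nearest start of the member; the symbol gives the place of the summit and red marks overlap with H3K27ac. The Rpgrip1 peak 2596 bp upstream is highest at 12.3, and 2 of the 17 peaks lie within 1 kb of a start.

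Promoter motifs followed another pattern. RefSeq promoters, 250 bases before to 50 after a start on GRCm38.p6, were matched for 37 of 41 members. Ift80, Ift81, Ift122 and Rp1 were not matched. GTTGCCA, a short form of the X-box bound by RFX factors, which are known regulators of ciliary genes, was found on either strand in 7 of 37 members, 18.9%, and in 4.85% of 16522 protein-coding genes matched. The 7 were general members, only 2 photoreceptor-enriched ones having a matched promoter, and their matches lay from 21 bp before to 43 bp after the start. They are printed as 30 bases each, read along the motif, which is in capitals.
Ift27, chr15:78174072-78174101, minus strand: ggttgatgatgGTTGCCAggagcctgtttg
Ift88, chr14:57424080-57424109, minus strand: ggacgcccagccGTTGCCAggcgcgactcc
Wdr35, chr12:8974021-8974050, plus strand: gatgcgactgggcggcggtgGTTGCCAggc
Bbs1, chr19:4906608-4906637, minus strand: tggctgagctgGTTGCCAaggcgacgcctg
Nphp4, chr4:152478132-152478161, plus strand: ggtgcatcccgGTTGCCAgctgatgttggg
Mks1, chr11:87853180-87853209, plus strand: ccagcgtctccGTTGCCAggggaacgaggc
Dync2h1, chr9:7177009-7177038, plus strand: actcagcaGTTGCCAagctccgtcgctatg
TAATCC was in the promoters of 2 of 37 members, Rpgrip1 and Bbs1, and in 7.60% of all genes matched, and CAGATG was in 5 of 37 and in 16.4%. At the 46 Otx2 peaks of member starts, TAATCC lay within the 300 bases around the summit of 3, 6.52%, and GTTGCCA of 8, 17.4%, where the shares over all 29115 Otx2 summits were 18.2% and 3.81%. The sets are unlike, since only 12364 of the 29115 peaks lay within 1 kb of a TSS of a protein-coding gene. Shares for those 12364 alone were not computed. At the 49 Otx2 peaks away from member starts, TAATCC was found at 13, 26.5%. The presence of these letters is a description and does not show which factor was bound.

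Many member promoters are not theirs alone. For 12 of 41 members a TSS of another protein-coding gene lay within 1 kb, 29.3% against 14.6% of all genes and 22.9% of genes with H3K4me3 at a TSS, and 11 of these neighbours are on the opposite strand. All 12 are general members: Ift20, Ift46, Ift80, Cluap1, Ift122, Ift140, Bbs12, Rpgrip1l, Cep290, Nphp4, Kif17 and Dync2h1. At the shared starts of these genes a peak cannot be assigned to 1 of the neighbours. This touches 4 of the 5 highest H3K4me3 values, those of Ift80, Ift140, Ift46 and Dync2h1. Without these 12 members, Otx2 was at a TSS of 29 of 29 members and H3K27ac of 12 of 29. These counts have no matching share of other genes beside them and are not a comparison.

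A further 37 ciliary genes, 8 photoreceptor-enriched and 29 general, were counted in the same way. Their list, too, was chosen with earlier results of these data known. Another listed gene was not matched to a protein-coding gene and was left out. Otx2 was at a TSS of 8 of 8 and of 26 of 29, with median fold enrichments of 7.87 and 4.36. H3K27ac was at 7 of 8 and 11 of 29. The general shares, 89.7% and 37.9%, were near the 86.4% and 37.1% of H3K4me3 genes. Neurod1 was within 1 kb of a TSS of 4 of 8, namely Mak, Prom1, Rom1 and Rp1l1, and of 2 of 29, Lca5 and Invs, against 5.76% of all genes and 9.46% of H3K4me3 genes. In the gene body plus 10 kb it was listed for 5 of 8 and for 5 of 29, 17.2%, against 15.3% of all genes and 22.1% of H3K4me3 genes. Mak, a kinase of the photoreceptor axoneme, had an Otx2 value of 15.5 and a Neurod1 value of 4.44, and Lca5, a ciliary transport gene counted as general, had 16.1 and 8.76, with H3K27ac at 11.2. These shares are descriptions of small lists, and the difference between them was not tested.

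The tissue label was checked with H3K4me3 at marker genes. Markers of retinal progenitors carried it in 4 of 4 cases and those of photoreceptor precursors in 5 of 6, Rcvrn being the exception, against 0 of 4 for lens, muscle, liver and blood markers. Of pigment epithelium markers, 2 of 3 were marked, Mitf at 6.63 and Pmel at 11.3, with Rpe65 at 0 peaks, and the Müller glia markers Rlbp1 and Glul had 2.98 and 35.9. Foxj1, Mcidas and Ccno, markers of multiciliated cells, had low values of 3.38 to 4.12. The shares of cell types behind the values were not tested.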

How the data were processed

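CUT&RUN was performed by the authors on P2 mouse retina, and per the labels the reads were processed with cutadapt 3.5, Trim Galore 0.6.4, Bowtie2, UMI-tools, SAMtools 1.12, deepTools 3.5.1 and MACS2 on GRCm38 (submitters' processing notes; the role of each tool was not given there). The deposited narrowPeak lists hold, per peak, a fold enrichment (a ratio over IgG) and a −log10 q-value, from libraries pooled for each target by the authors. The other deposited columns and the lists of the second species, the 13-lined ground squirrel, were not used here.

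Peaks were assigned to GENCODE M21 protein-coding genes when they shared 1 bp or more with the 1 kb flanking any TSS, or with the gene body extended by 10 kb in both directions, in Python 3.11.15 with NumPy 2.4.6. The strongest peak gave the value of a gene. Sequences were read with pysam 0.24.0 and SAMtools 1.23.1, and figures were drawn with matplotlib 3.10.9. The overlap code was checked on simulated intervals against bedtools 2.31.1. No test was run, since pooled lists have no spread between samples and read totals are unknown. The members and lists were chosen with earlier results of these data known. Values were given for the photoreceptor-enriched members, for the 5 highest members at a TSS for H3K4me3, H3K27ac and Otx2, and for every member with a Neurod1 peak in its window; further members were named to complete a role group. Alternatives were other TSS windows, gene or transcript starts, stricter q, fold and overlap, the gene body alone, distal peaks alone and lists of equal length.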

Additional observations from a re-analysis of the deposited data

How the results depend on the processing

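Of 116 alternative counts for 14 results, 97 were within 1.5 times the reported count and 19 were not. Most of the 19 came from shortening every list to 4744 peaks. At a TSS this left H3K4me3 at 9 members, H3K27ac at 0, H3K4me1 at 0, Otx2 at 16 (1 photoreceptor-enriched and 15 general), and H3K4me3 with Otx2 at 2. In the gene body plus 10 kb it left H3K4me3 at 11, H3K27ac at 11, H3K4me1 at 2, Otx2 at 19, and Neurod1 overlapped by Otx2 at 3. Requiring −log10 q of at least 5 left H3K27ac at a TSS of 9 members, and a window of 500 bp left Neurod1 at 1. Distal peaks alone left H3K4me3 at 18 and Otx2 at 26. The gene body alone left Neurod1 at 7 and Neurod1 overlapped by Otx2 at 7. Leaving out the 12 members that share a TSS window, an alternative chosen after seeing the data, left H3K4me1 at 23 of 29. The falls follow from fewer peaks, a smaller region or fewer genes counted. Shares of all genes are given above only for H3K4me3 and Otx2 at a TSS with shortened lists. The other alternative counts describe the members alone and do not compare them with other genes.

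No paired analysis was possible because each list pools its libraries, and leaving out each replicate in turn was not possible either. Depth is unknown, so the absence of a peak says only that none was listed.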
